A study of Mus musculus with 14 samples.

Results

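Claudins and connexins are 2 families of membrane proteins that join neighbouring epithelial cells. The 9 genes described here are 5 claudins (*Cldn1*, *Cldn3*, *Cldn4*, *Cldn7* and *Cldn12*) and 4 connexins (*Gja1*, *Gjb2*, *Gjb5* and *Gjb6*). They were taken by gene symbol from a table of 54332 genes, and each symbol matched 1 gene. Their RNA was followed while SOX9, a transcription factor of hair follicle stem cells, was switched on in EpdSCs, the epidermal stem cells that lie between hair follicles. All 10 libraries came from CD1 back skin of genotype K14rtTA; TRE-myc-Sox9, labelled male, in which the *Krt14* promoter drives rtTA in skin epithelium and doxycycline (DOX) then switches on a MYC-tagged *Sox9* transgene. There were 2 biological replicates at each of 5 timepoints. D0 cells came from mice at postnatal day 21 before DOX acted, W1 cells from mice at day 28 after 1 week on DOX, W2 cells at day 35 after 2 weeks and W6 cells at day 63 after 6 weeks. W12 cells came from grafts: newborn transgenic skin was placed on female immunocompromised Nude hosts, left to heal and then kept on DOX for 12 weeks. Age from D0 to W6, and grafting and the host at W12, cannot be told apart from time on DOX. Cells were sorted as CD49f-high and Ly6A-high, without CD34 or the markers CD31, CD45, CD117 and CD140a.

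Claudins form the strands of tight junctions, which seal the space between epithelial cells, and the mix of claudins in a strand sets which ions and solutes pass. In the epidermis, tight junctions lie in the granular layer, although several claudins are also made in the basal layer. Connexins assemble into gap junction channels that pass ions and small metabolites from cell to cell, and a channel's properties depend on the connexins it is made of. Mutations in several of these genes cause skin disease, deafness or both in humans.

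Values are TPM, in which a gene's transcript abundance is corrected for length and scaled to 1000000 in every library. TPM can therefore be compared between genes, but the depth behind a value is unknown and no counting interval is given. Tests were made with limma on log2(TPM + 1) over the 13110 genes whose mean reached 1 TPM, and a gene was called at a Benjamini-Hochberg adjusted P under 0.05. On this scale a log2 change understates that of a low gene. All 9 genes passed the filter, *Cldn7* only through its W12 values, as its mean from D0 to W6 was 0.767 TPM. Its W12 values are therefore given as a description, without a test, and counts of members are given over the 8 others.

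The transgene and the labels were checked first. MYC-SOX9 was listed at 45.6 and 89.6 TPM in the D0 libraries and at 606 to 3414 TPM in the 8 later ones. *Krt14* was at 19997 TPM or more in every library, but other basal EpdSC markers fell. Of 7 such markers, none was called by limma at W1, 1 was lower at W2 and 6 at W6, and at W12 4 were lower and 1 higher. *Krt15* went from 11241 and 11928 TPM at D0 to 429 and 1350 at W6 and 322 and 242 at W12. Of 11 tested suprabasal and granular markers, the first week gave 2 higher, W2 gave 3, W6 gave 6 with 1 lower, and W12 gave 4 with 2 lower. Over all genes, 5.79%, 9.06%, 18.3% and 17.9% were higher at these timepoints and 4.1%, 6.64%, 14.1% and 25.1% lower. *Krtdap* was the most abundant of them at W6 and W12, at 9986 to 11060 TPM after 647 to 5209 TPM from D0 to W2. *Ivl*, the envelope protein involucrin, was at 0.963 and 1.01 TPM at D0, 5.33 to 9.32 TPM at W1 and W2, and 13.0 to 16.4 TPM at W6 and W12. The cornified envelope gene *Lor* went the other way at W12, to 2.00 and 2.05 TPM from 15.4 and 19.4 at D0, as did the desmosomal gene *Dsg1a*, to 70.1 and 44.1 TPM from 135 and 173. The part of these markers in the claudin and connexin results was not tested. D0 replicate 2, labelled male, listed 4.61 TPM of *Xist* and 0.0278 TPM of *Ddx3y*, a gene of the Y chromosome, whereas the other libraries up to W6 had *Ddx3y* at 21.9 TPM or more. Both W12 libraries, from grafts on female hosts, carried *Xist* (5.51 and 3.50 TPM) together with *Ddx3y* (10.97 and 12.9 TPM), and the part of host cells in the W12 values was not tested. For the 8 genes tested, calls that changed without one of these libraries are given with and without it. So are those of the other claudins, pannexins and transmembrane proteins at W12 against D0. For plaque and polarity proteins at W12 against D0, the range of the number called is given, not every gene whose call changed. Marker lists and other comparisons of the other junction genes were not refitted in this way.

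By position, the 9 genes fall on 6 chromosomes of GRCm38 (GENCODE M21). *Cldn4* (chr5:134945119-134946934, minus strand) and *Cldn3* (chr5:134986214-134987472, plus strand) lie 39279 bases apart with no annotated gene between them. *Gjb2* (chr14:57098600-57104702) and *Gjb6* (chr14:57123303-57133611), both on the minus strand, lie 18600 bases apart with 1 annotated protein-coding gene between them. The others are *Cldn12* (chr5:5489537-5514958, minus), *Cldn1* (chr16:26356642-26371841, minus), *Cldn7* (chr11:69964779-69967885, plus), *Gja1* (chr10:56377330-56402513, plus) and *Gjb5* (chr4:127354809-127358181, minus). Few 31-base words of these transcripts occur in another gene's transcripts: the share was 1.36% for *Gja1*, 1.22% for *Cldn3*, 0.28% or less for *Cldn4*, *Cldn1* and *Cldn7*, and 0 for the other 4. Only *Cldn3* overlaps an annotated gene, the antisense transcript *Wbscr25*, which reached at most 0.532 TPM, and the strand setting of the counting is not given in the sources used here.

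The promoters of these nearby pairs and of *Gja1* are shown because these 5 of the 9 genes had the largest changes on the log2(TPM + 1) scale. Each is the 250 bases before the RefSeq start on GRCm38.p6, read 5′ to 3′ along the gene. The 4 short words searched, on both strands, were ACAAT for SOX factors, TGANTCA for AP-1, TGTGGT for RUNX and AGATAA for GATA. Capitals mark a match.
Gja1 (chr10:56377050-56377299): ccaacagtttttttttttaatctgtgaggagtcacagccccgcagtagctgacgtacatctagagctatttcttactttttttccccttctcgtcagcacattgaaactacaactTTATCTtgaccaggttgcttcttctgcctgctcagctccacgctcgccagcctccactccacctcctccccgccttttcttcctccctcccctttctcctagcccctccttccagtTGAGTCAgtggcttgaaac
Cldn4 (chr5:134946935-134947184): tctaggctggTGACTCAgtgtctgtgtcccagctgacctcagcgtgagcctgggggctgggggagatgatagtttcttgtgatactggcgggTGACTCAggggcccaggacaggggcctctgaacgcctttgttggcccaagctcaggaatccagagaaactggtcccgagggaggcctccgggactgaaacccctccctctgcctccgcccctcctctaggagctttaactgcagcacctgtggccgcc
Cldn3 (chr5:134985964-134986213): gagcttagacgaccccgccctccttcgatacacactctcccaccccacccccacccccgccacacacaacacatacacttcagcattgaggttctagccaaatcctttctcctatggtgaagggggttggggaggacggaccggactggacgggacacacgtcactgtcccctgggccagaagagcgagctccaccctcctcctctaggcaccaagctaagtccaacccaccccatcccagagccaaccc
Gjb2 (chr14:57104703-57104952): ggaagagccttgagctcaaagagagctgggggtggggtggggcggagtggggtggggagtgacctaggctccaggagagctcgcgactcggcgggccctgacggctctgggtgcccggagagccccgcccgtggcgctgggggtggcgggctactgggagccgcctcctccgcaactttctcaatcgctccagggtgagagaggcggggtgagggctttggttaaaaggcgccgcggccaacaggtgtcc
Gjb6 (chr14:57133612-57133861): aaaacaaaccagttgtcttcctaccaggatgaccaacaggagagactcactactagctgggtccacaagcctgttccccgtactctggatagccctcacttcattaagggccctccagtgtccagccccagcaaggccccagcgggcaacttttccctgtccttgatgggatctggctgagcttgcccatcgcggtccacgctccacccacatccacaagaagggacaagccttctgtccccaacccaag
The *Gja1* window held 1 AP-1 word (TGAGTCA, first base at -19 from the start) and 1 GATA word on the minus strand (TTATCT, at -135). The *Cldn4* window held 2 AP-1 words (TGACTCA, at -240 and -158). No word was found in the other 3 windows. Of 32851 RefSeq promoters of this length, 27.7% held the SOX word, 6.7% the AP-1 word, 14.0% the RUNX word and 10% the GATA word. Other forms of these motifs were not searched, so a window without a marked word may still hold one. A match is a description of the letters and no evidence of binding.

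Over the whole time course, 6 of the 8 genes that passed the filter without W12 varied by the moderated F test, against 57.5% of all genes tested. The 2 that did not were *Cldn12* and *Gjb5*. Against D0, 2 of the 8 were higher and 2 lower at W1, where 5.79% of all genes were higher and 4.1% lower. At W2 the counts were again 2 and 2, with 9.06% and 6.64% of all genes. At W6 3 were higher and 2 lower, with 18.3% and 14.1% of all genes. At W12 4 were higher and none lower by limma, with 17.9% and 25.1% of all genes, and 1 (*Cldn1*) was lower at an unadjusted P under 0.05. The median log2 change of the 8 genes was 0.09, -0.03, 0.04 and 1.06 at these timepoints, beside 0.09, 0.06, 0.08 and -0.08 for all genes. *Cldn7* was not called before W12, so the counts for W1, W2 and W6 are the same with it. Leaving both W12 libraries out of the fit left the number called at 4, 4 and 5 for W1, W2 and W6, and leaving out D0 replicate 2 gave 3, 4, 5 and 4 from W1 to W12.

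**Figure D1:**
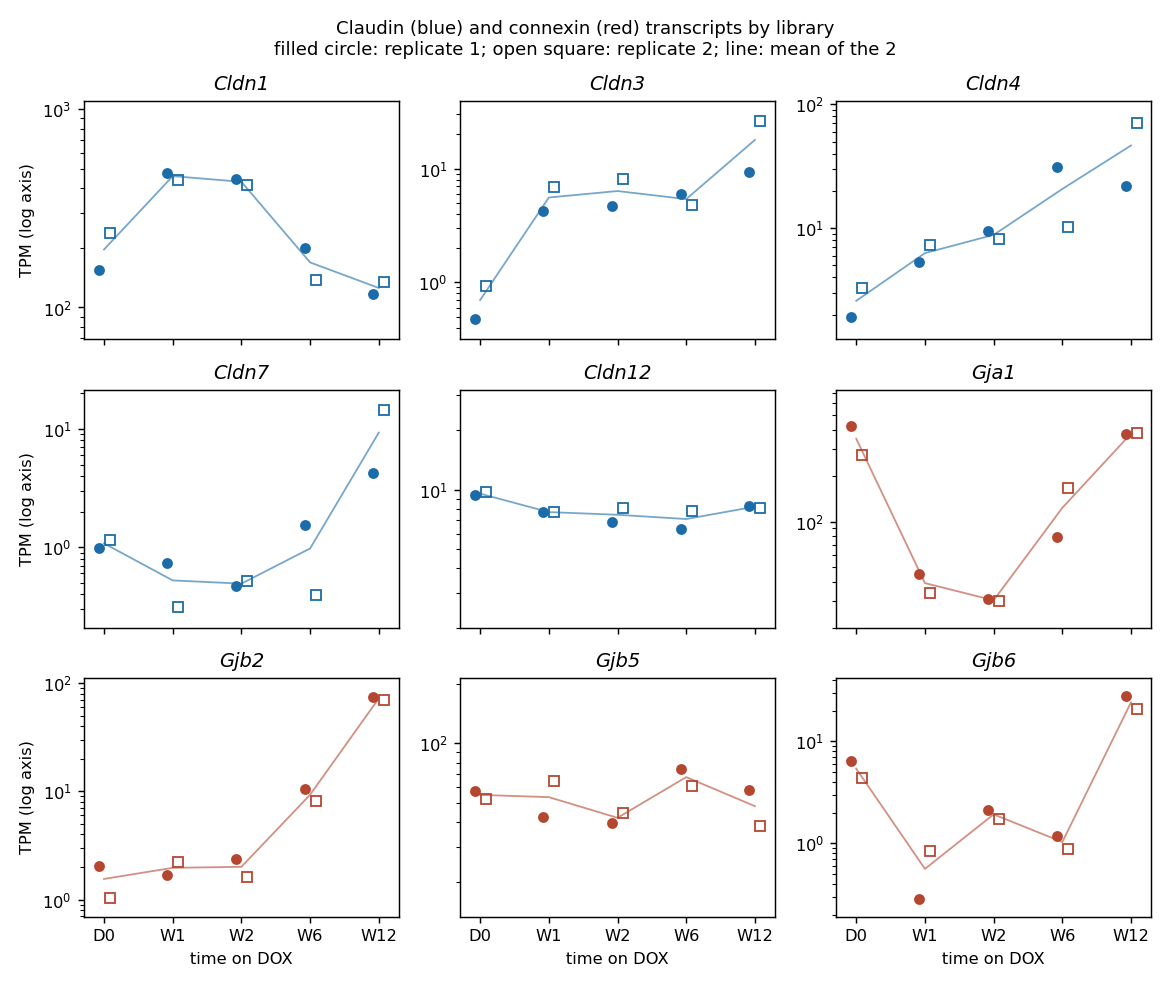
TPM of each gene (log axis, scaled per panel) in both libraries of each timepoint, replicate 1 as filled circles, replicate 2 as open squares, and the mean as a line. *Cldn1* and *Gja1* move in opposite directions at W1 and W2, *Gjb2* leaves its early range of 1.04 to 2.38 TPM from W6 on, and *Cldn12* stays between 6.36 and 9.69 TPM.

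*Cldn1*, the claudin without which the mouse epidermal water barrier fails, was the most abundant claudin in every library. It was at 154 and 238 TPM at D0, 480 and 441 at W1, 446 and 417 at W2, 200 and 138 at W6, and 117 and 134 at W12. The 4 libraries of W1 and W2 were above all others, and the D0 and W6 values overlapped. The mean rose 2.35-fold at W1 (log2 change 1.26 ± 0.23 SE, adjusted P = 0.0119, limma, n = 2 and 2) and 2.20-fold at W2 (1.16 ± 0.23, adjusted P = 0.0126). From W2 to W6 it fell by 1.37 on the log2 scale (SE 0.23, adjusted P = 0.00950). At W12 the log2 change against D0 was -0.61 ± 0.23, which did not pass (adjusted P = 0.0638), although both W12 values lay below both D0 values. Without D0 replicate 1, that change was -0.92 (adjusted P = 0.0109), and without D0 replicate 2 it was -0.30 (adjusted P = 0.341). It also passed without W6 replicate 1 or 2 in the fit (adjusted P = 0.0435 and 0.0438). The rises lost their calls without either library of their own timepoint (adjusted P = 0.0797 and 0.0737 at W1, 0.0838 and 0.0712 at W2), and the fall to W6 without either W2 library (0.0827 and 0.0579).

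*Cldn3* and *Cldn4* encode claudins that both bind the enterotoxin of *Clostridium perfringens*. *Cldn3* was at 0.473 and 0.923 TPM at D0, 4.20 and 6.95 at W1, 4.66 and 8.05 at W2, 6.01 and 4.79 at W6, and 9.43 and 26.4 at W12. No later library overlapped D0. Against D0 it was higher at each later timepoint, by 1.93, 2.09, 1.92 and 3.33 on the log2 scale (SE 0.45, adjusted P = 0.0291, 0.0160, 0.0127 and 0.000697 in order, limma). W1, W2 and W6 overlapped one another. The W12 change was 4.02 without W12 replicate 1 and 2.63 without replicate 2, and 4.38 with a pseudocount of 0.1, each still called. The W1 call was lost when each of its 4 libraries was left out in turn (adjusted P = 0.0879 and 0.0680 without D0 replicate 1 or 2, 0.0702 and 0.209 without W1 replicate 1 or 2). The W2 call was lost without D0 replicate 1 (0.0554) or W2 replicate 2 (0.127), and the W6 call without W6 replicate 1 (0.0541). From W6 to W12 the change of 1.41 ± 0.45 did not pass (adjusted P = 0.0576). It passed with the replicate number as a block (adjusted P = 0.0344) and without W12 replicate 1 (2.10, adjusted P = 0.0280), but without W12 replicate 2 it was 0.71 (adjusted P = 0.302).

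*Cldn4* was at 1.90 and 3.28 TPM at D0, 5.28 and 7.29 at W1, 9.42 and 8.22 at W2, 31.2 and 10.2 at W6, and 21.8 and 71.1 at W12. All 8 later libraries were above D0, and the W6 and W12 ranges overlapped. The change was 1.03 ± 0.59 at W1 and 1.48 ± 0.59 at W2, neither of which passed (adjusted P = 0.307 and 0.125). With only the libraries of D0 and W2 in the fit, the W2 change passed (adjusted P = 0.0478). *Cldn4* was higher at W6 (2.43 ± 0.59, adjusted P = 0.0147) and at W12 (3.53 ± 0.59, adjusted P = 0.00199). The W12 change was 4.36 without W12 replicate 1 and 2.70 without replicate 2, both still called. Without W6 replicate 1 the W6 change was 1.66 and did not pass (adjusted P = 0.0738), and without D0 replicate 1 it was 2.15 (adjusted P = 0.0562).

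*Cldn7* was at 0.994 and 1.16 TPM at D0 and at 1.56 TPM or less in every library up to W6. At W12 it was at 4.27 and 14.3 TPM, above all earlier libraries. The mean was 9.31 TPM at W12 against 1.08 TPM at D0, and the W12 replicates differed by more than any earlier pair in TPM.

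*Cldn12* lay between 6.36 and 9.69 TPM in all 10 libraries, the smallest range of the 9 genes (1.52-fold). Both D0 values (9.38 and 9.69 TPM) were above all later ones. None of its changes against D0 passed. The largest was -0.39 at W6, with a 95% interval of -0.78 to 0.01 (adjusted P = 0.122).

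*Cldn3*, *Cldn4* and *Cldn7*, each above all its D0 values at W12, were uneven between the replicates there: replicate 2 exceeded replicate 1 by 2.80-fold for *Cldn3*, 3.26-fold for *Cldn4* and 3.36-fold for *Cldn7*. Keratins of simple epithelium, which interfollicular epidermis largely lacks, had the same unevenness: 3.14-fold for *Krt8*, 3.20-fold for *Krt18*, 3.53-fold for *Krt19* and 2.95-fold for *Krt7*. *Krt8* was at 46.3 and 145 TPM at W12 after 0.0390 TPM or less at D0. It and 2 others of the 5 genes on that list, *Krt7* and *Epcam*, were called higher at W12, while *Krt18* and *Krt19* passed the filter only through W12. At W6 replicate 1 was the higher library for *Cldn4* (3.08-fold) and *Cldn7* (3.93-fold), as for *Krt8* (5.07-fold) and *Krt19* (10.97-fold). *Cldn3* differed only 1.25-fold there. The *Cldn7* and *Krt19* ratios rest on low values, 1.56 and 0.396 TPM and 2.83 and 0.258 TPM. Of the suprabasal and granular markers, *Klk7* (421 and 131 TPM) and *Tgm1* (16.4 and 5.79) were also higher in W6 replicate 1. So were *Lor* (24.4 and 8.07 TPM) and *Flg* (38.7 and 13.1). *Krt1*, *Krt10*, *Tgm3* and *Dsg1a* were higher in W6 replicate 2. *Epcam* differed 1.25-fold at W12. Because RNA was measured in bulk, a larger share of cells with these transcripts and more RNA per cell cannot be told apart.

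Endothelial markers also set W12 apart. Their summed level (*Pecam1*, *Cdh5*, *Kdr*, *Tek* and *Emcn*) was 57.0 and 124 TPM at W12 and 1.64 TPM or less in the 8 other libraries, although CD31, the product of *Pecam1*, was gated out. *Pecam1*, *Tek* and *Emcn* passed the filter only through W12, so no test is given. *Cd34*, also gated out, was at 16.5 and 32.0 TPM at W12 and at 5.04 TPM or less elsewhere. Of the 6 fibroblast markers, *Dcn* was at 51.2 TPM in W6 replicate 2, at 13.2 and 27.2 TPM at W12 and at 2.06 TPM or less elsewhere, while the other 5, collagen genes among them, were at 1.08 TPM or less in every library. *Cldn5*, the claudin of endothelial tight junctions, was listed at 0 in both D0 libraries and at 2.70 and 4.40 TPM at W12, with a mean too low for the test. Unlike the claudins above, *Gjb2* and *Gjb6* were not higher in W12 replicate 2, at 0.955 and 0.744 of replicate 1, and *Gja1* was at 1.00. The part of these markers in the results was not tested.

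**Figure D2:**
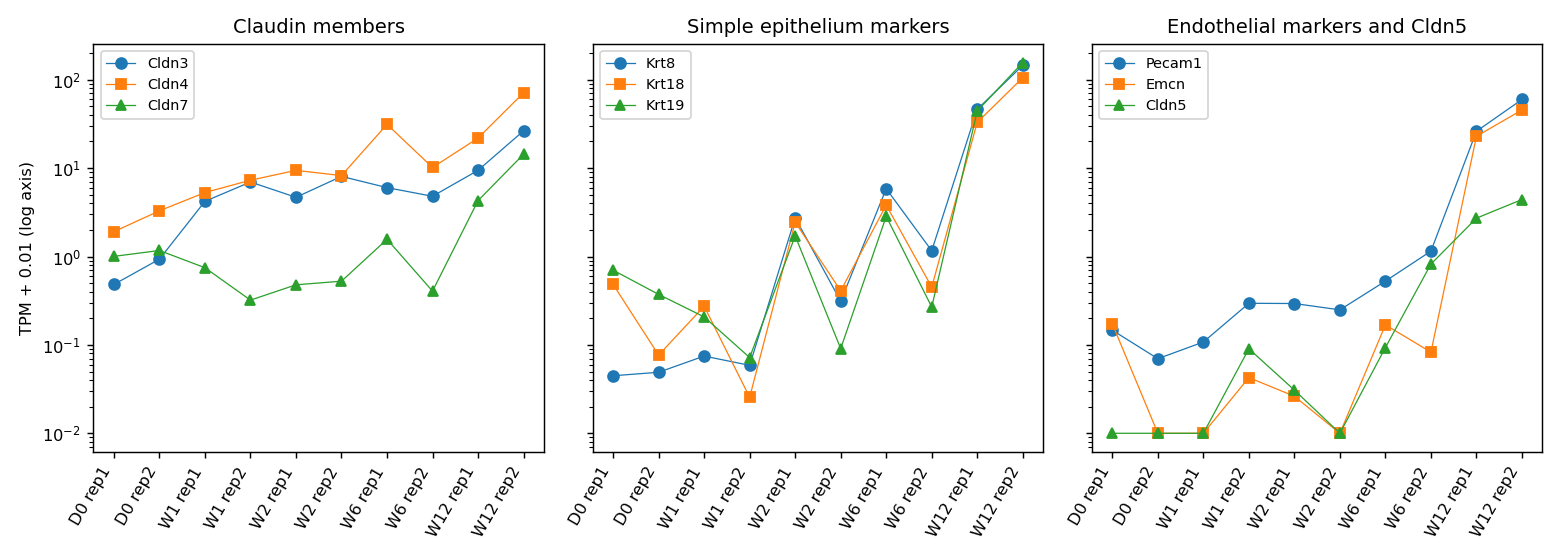
TPM plus 0.01 (log axis) in each of the 10 libraries, for *Cldn3*, *Cldn4* and *Cldn7*, for 3 keratins of simple epithelium, and for endothelial markers with *Cldn5*. The keratins and endothelial markers stand highest in the W12 libraries, and there, as for the 3 claudins, replicate 2 lies above replicate 1.

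*Gja1* encodes connexin Cx43, the most widely expressed connexin, made in the basal and lower suprabasal epidermis. It was at 426 and 274 TPM at D0, 45.1 and 33.7 at W1, 30.7 and 29.9 at W2, 79.7 and 166 at W6, and 377 and 379 at W12. W1 and W2 lay below all other libraries and W6 lay between them and D0, while W12 fell inside the D0 range. Its mean was 8.89 times lower at W1 (log2 change -3.10 ± 0.33, adjusted P = 0.00104) and 11.5 times lower at W2 (-3.45 ± 0.33, adjusted P = 0.000461). It remained lower at W6 (-1.56 ± 0.33, adjusted P = 0.00870), and rose from W2 to W6 (1.89 ± 0.33, adjusted P = 0.0101) and from W6 to W12 (1.71 ± 0.33, adjusted P = 0.01004). At W12 the change against D0 was 0.15 ± 0.33 with a 95% interval of -0.61 to 0.90 (adjusted P = 0.747). The 2 later rises each lost the call without either library of one timepoint (adjusted P = 0.0748 and 0.0665 without W2 replicate 1 or 2, 0.0722 and 0.0546 without W12 replicate 1 or 2).

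Immediate-early and dissociation stress genes, which include AP-1 subunits, had their highest summed level at D0. The sum was 34229 and 56214 TPM at D0 and 6327 to 14575 TPM later, and 13 of 18 were lower at W1, where 4.1% of all genes were. Some went the other way: *Ier3* was higher at W12 (617 and 835 TPM) than at D0 (348 and 300 TPM). At W2, *Hspa1a* was at 376 and 359 TPM after 183 and 116 at D0. *Hspa1b* was at 919 and 613 TPM at W2 after 399 and 275 at D0. *Gja1* at W12 was at its D0 level while the sum was 7481 and 9416 TPM, and the part of these genes in the *Gja1* changes was not tested. The W6 comparison of *Gja1* with D0 lost its call in a fit of those 4 libraries alone (adjusted P = 0.0804).

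*Gjb2* (connexin Cx26) and *Gjb6* (Cx30) often share channels, and mutations in either cause deafness and skin disorders. *Gjb2* was at 2.06 and 1.04 TPM at D0, 1.70 and 2.24 at W1, 2.38 and 1.63 at W2, 10.5 and 8.18 at W6, and 74.0 and 70.7 at W12. D0, W1 and W2 overlapped, W6 lay above them and W12 above W6. *Gjb2* rose 6.0-fold at W6 (log2 change 2.04 ± 0.25, adjusted P = 0.000766) and 46.6-fold at W12 (4.87 ± 0.25, adjusted P = 6.8e-06). From W2 to W6 it rose by 1.78 ± 0.25 (adjusted P = 0.00497) and from W6 to W12 by 2.84 ± 0.25 (adjusted P = 0.000212). All 4 of these calls held under every alternative tried.

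*Gjb6* was at 6.43 and 4.35 TPM at D0, 0.286 and 0.839 at W1, 2.13 and 1.72 at W2, 1.19 and 0.872 at W6, and 27.6 and 20.5 at W12. It was lower than D0 at W1 (-2.04 ± 0.27, adjusted P = 0.00269), W2 (-1.11 ± 0.27, adjusted P = 0.0276) and W6 (-1.64 ± 0.27, adjusted P = 0.00308), and no library of these timepoints reached D0. At W12 it was higher than D0 by 1.98 ± 0.27 (adjusted P = 0.000802) and higher than W6 by 3.62 ± 0.27 (adjusted P = 8.89e-05). Thus the nearby genes *Gjb2* and *Gjb6* were both higher at W12 but, of the 2, only *Gjb6* was lower at W1 and W2; at W6, *Gjb2* was higher than D0 and *Gjb6* lower. The W2 call of *Gjb6* was lost under 6 of 19 alternatives, among them without D0 replicate 1 (adjusted P = 0.0944) and without W2 replicate 1 or 2 (0.103 and 0.175).

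*Gjb5* (Cx31.1) encodes a connexin of stratified epithelium. Its values ran from 38.5 to 74.4 TPM, and every timepoint overlapped at least 1 other. None of its changes passed. The largest, 0.67 ± 0.25 from W2 to W6, had a 95% interval of 0.11 to 1.22 (adjusted P = 0.0963).

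**Figure D3:**
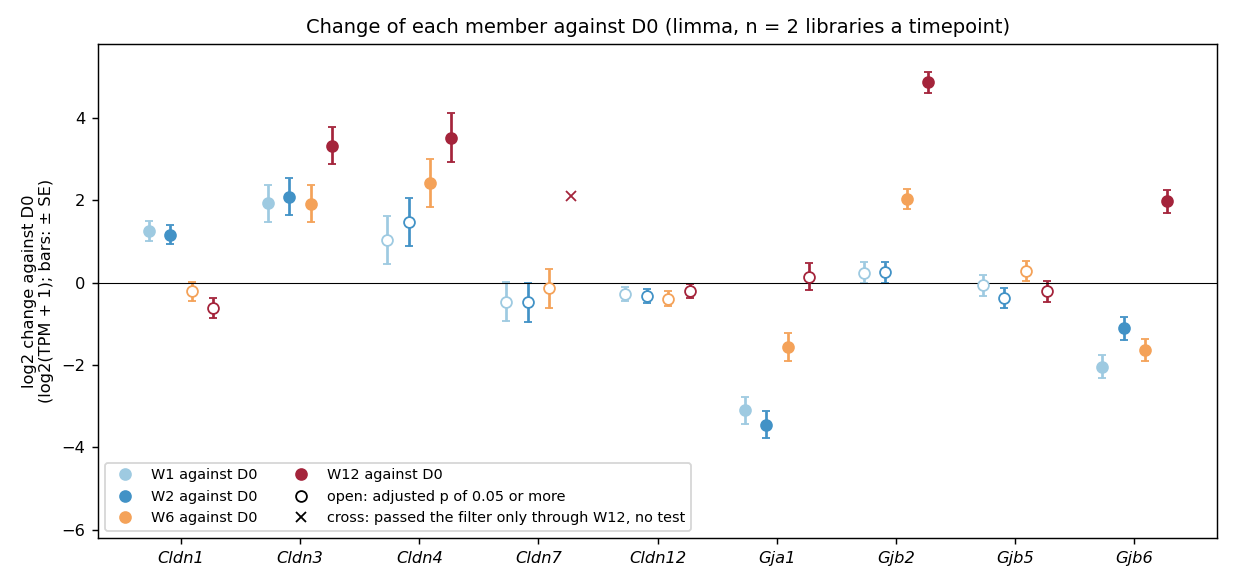
Log2 change of each gene against D0 on the log2(TPM + 1) scale with its SE, filled where the adjusted P was under 0.05, and as a cross with no SE for *Cldn7* at W12, which was not tested. *Gja1* and *Gjb6* lie below 0 from W1 to W6, *Cldn3* lies above 0 at every timepoint, and *Gjb2* has the largest change, 4.87 at W12.

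Between neighbouring timepoints, none of the 9 genes differed between W1 and W2 by limma, with 1 (*Gjb6*) at an unadjusted P under 0.05; among all genes 0.0458% were higher and 0.0686% lower. From W2 to W6, 2 were higher (*Gja1* and *Gjb2*) and 1 lower (*Cldn1*), with 7.99% and 8.31% of all genes. From W6 to W12, 3 of the 8 without *Cldn7* were higher (*Gja1*, *Gjb2* and *Gjb6*) and none lower by limma, with 6.66% and 13.5% of all genes.

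The make-up of each family shifted as well. *Cldn1* made up 89.1% to 93.2% of the summed TPM of 29 claudin genes from D0 to W2, 74.4% and 75.0% at W6, and 68.1% and 49.4% at W12. *Cldn3*, *Cldn4* and *Cldn7* together went from 1.95% and 2.08% at D0 to 20.8% and 41.2% at W12. *Gja1* was 61.5% and 53.8% of the summed TPM of 20 connexin genes at D0, 6.51% to 11.1% at W1 and W2, and 46.5% and 48.4% at W12. *Gjb2* and *Gjb6* together were 1.32% or less up to W6 and 12.5% and 11.6% at W12. Shares were not tested.

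**Figure D4:**
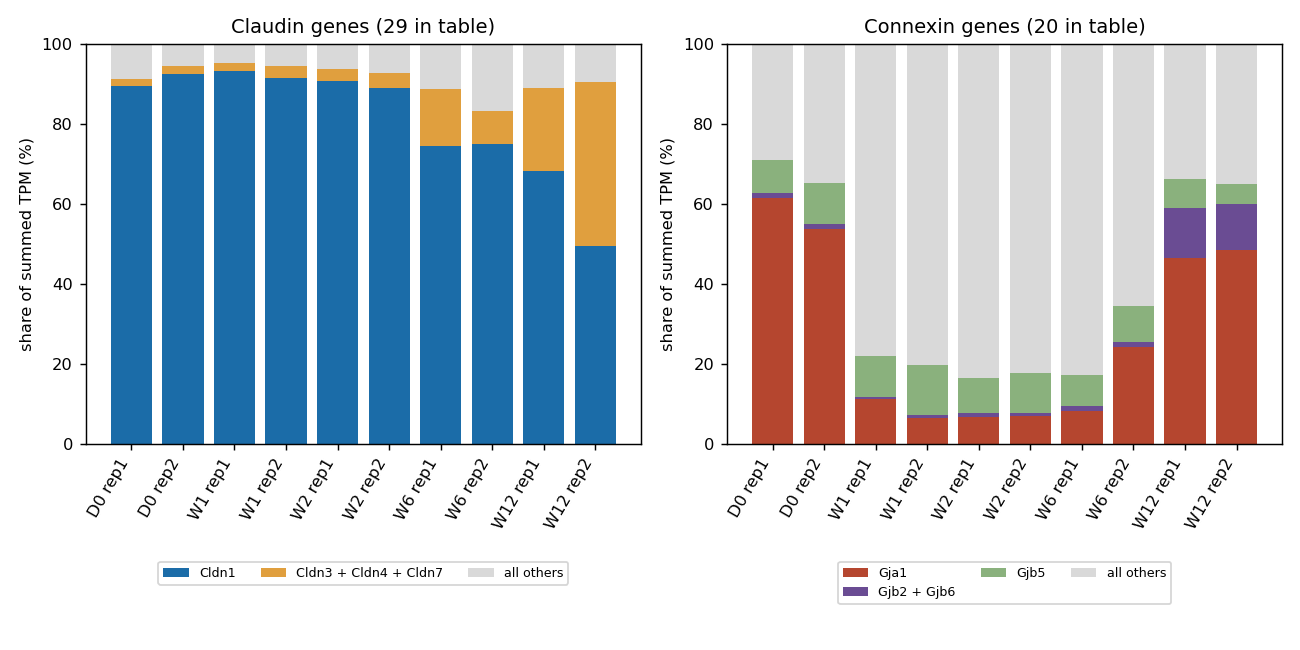
Share (%) of the summed TPM of all claudin genes and of all connexin genes in each library, stacked by gene. The *Cldn1* share is smallest at W12, where that of *Cldn3*, *Cldn4* and *Cldn7* is largest, and the *Gja1* share is smaller from W1 to W6 than at D0 and W12.

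Of the 24 other claudins in the table, 3 passed the filter. *Cldn8* was higher than D0 at W1, W2 and W6 (1.73, 2.39 and 2.16, each SE 0.26, adjusted P = 0.00473, 0.000801 and 0.000694) but fell by 1.98 from W6 to W12 (adjusted P = 0.00190). *Cldn34c1* was higher at W1 and W12 (1.42 and 0.75), the latter a call lost without D0 replicate 1 or either W12 library. Of the 3 pannexins, which form related channels, only *Panx1* was tested, and it was lower at W6 (-0.87).

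Most tested genes for the rest of the tight junction that were called at W12 were lower. Of 7 genes for other transmembrane proteins, 1 was higher and 4 lower at W12 than at D0, beside 17.9% and 25.1% of all genes. *Marveld3* (-1.46), *Lsr* (-1.43), which marks tricellular contacts, and *Marveld2* (-0.88) were lower. The 1 higher gene was *Ildr1* (0.84), which was also called higher than D0 at W1, W2 and W6 (2.17, 1.82 and 1.66). *Marveld2* lost its call without D0 replicate 2 (-0.56, adjusted P = 0.130) and without either W12 library (0.0646 and 0.118). *Jam2*, an adhesion molecule also made by endothelium, passed the filter only through W12, where it was at 10.8 and 15.1 TPM after 0.292 TPM or less. Of 16 tested genes for plaque and polarity proteins, which couple the strands to actin and set the apical side, 1 was higher and 11 lower, beside the same 17.9% and 25.1%, with a median of -1.04. Without each library of D0 and W12 in turn, 9 to 11 were lower and the 1 higher call was lost each time. The largest falls were in the polarity gene *Pard6b* (-2.90), in *Tjap1* (-2.74), in the angiomotin-like *Amotl1* (-2.08) and in *Tjp3* (-1.70), a ZO scaffold. The D0 replicates of the first pair were uneven, at 25.2 and 68.7 TPM for *Pard6b* and 51.0 and 125.9 TPM for *Tjap1*. Without D0 replicate 2 their changes were -2.19 and -2.10, and without D0 replicate 1 they were -3.60 and -3.38, each still called.

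**Figure D5:**
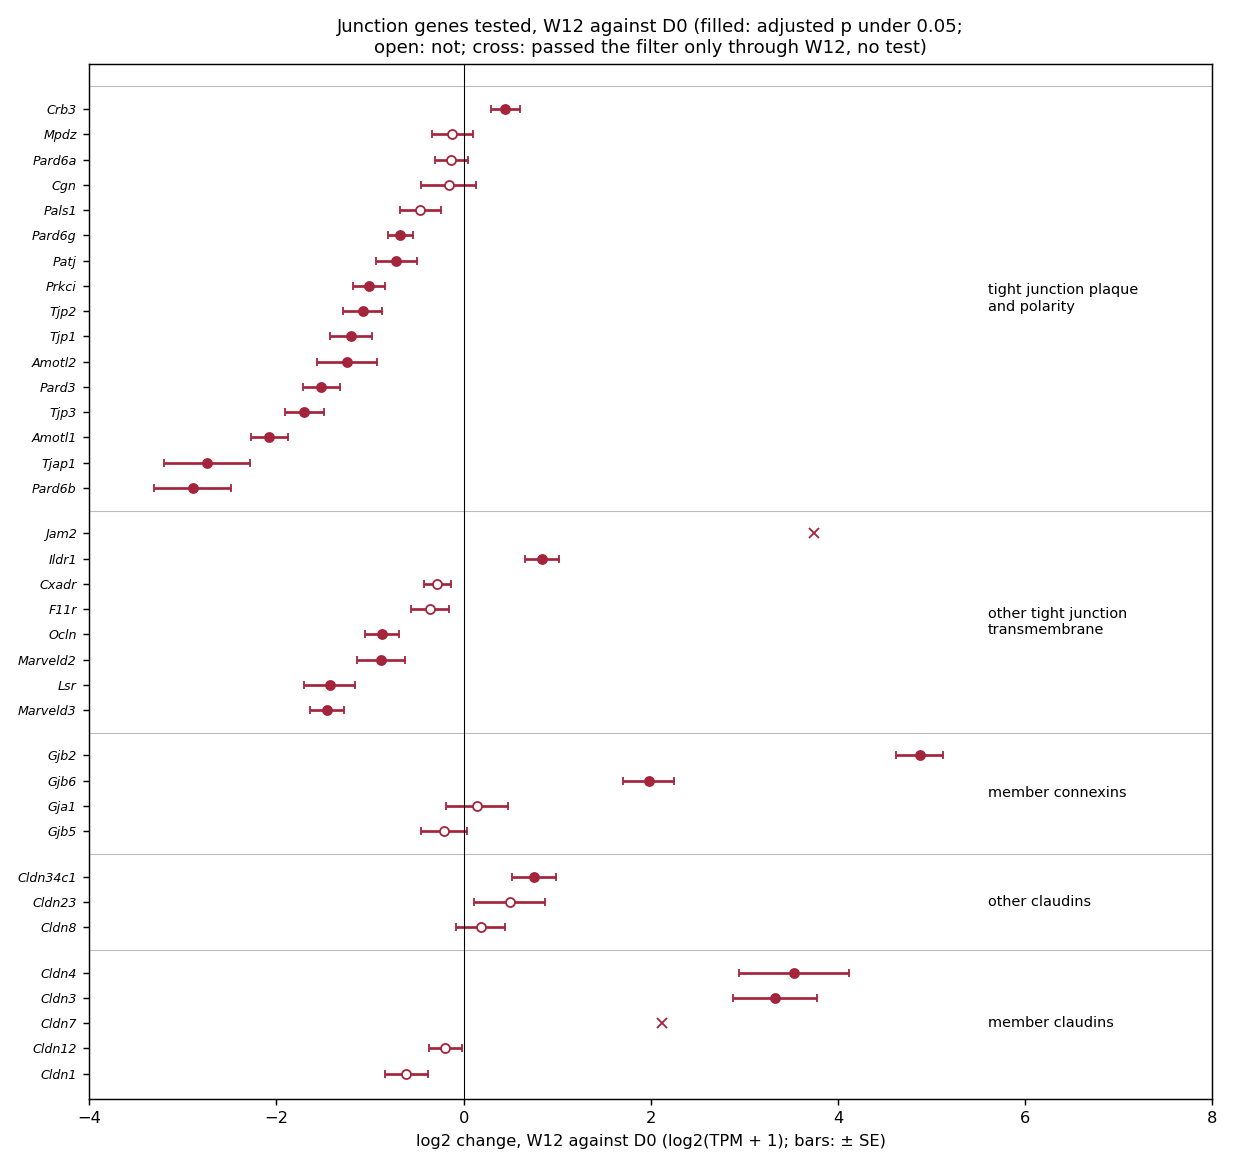
Log2 change from D0 to W12 with its SE for the member genes, the other claudins tested and the other tight junction genes tested, by group, filled where the adjusted P was under 0.05. Crosses with no SE mark *Cldn7* and *Jam2*, which passed the filter only through W12 and are given without a test. The member claudins *Cldn3* and *Cldn4* and the connexins *Gjb2* and *Gjb6* lie between 1.98 and 4.87, and 11 of 16 plaque and polarity genes are filled below 0.

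Among 9931 other genes whose mean reached 5 TPM, those whose log2 levels ran closest to each of the 8 genes tested over the 10 libraries were ranked by Pearson r, as a description over libraries that share timepoints. *Cldn1* ran with *Gsn* (r = 0.997), the actin-severing protein gelsolin, and *Cask* (0.980). *Gja1* ran with the ligand gene *Wnt5a* (0.987) and *Piga* (0.981), and *Gjb2* with *Defb14*, a defensin (0.997), and the protease inhibitor *Timp1* (0.995). *Gjb6* ran with *Mmp3* (0.955) and *Il6* (0.947), *Cldn3* with *Pthlh* (0.947) and *S100a1* (0.943), and *Cldn4* with *Mxd1* (0.953) and *Gnpnat1* (0.952). *Wnt5a*, *Defb14*, *Timp1*, *Mmp3* and *Il6* reached a mean of 5 TPM only through W12, the timepoint where they and *Gjb2* and *Gjb6* were highest, which limits what these r values show. No r is given for *Cldn7*, whose nearest genes, like itself, stood high only at W12. The closest genes to *Cldn12* were *Serpinb7* (0.940) and *Ankrd22* (0.936), and *Gjb5* had the lowest best match, *Rab38* at 0.845.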

How the data were processed

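RNA was measured in 10 time-course libraries of sorted EpdSCs and in 4 libraries of SOX9+ and SOX9neg placode cells. The authors deposited time-course TPM for each gene, after trimming with Skewer, quantifying with Salmon (1.4.0) on a GENCODE transcript index of GRCm38 that also held the transgene, and summing with Tximport (1.12.3). TPM sum to 1000000 in each library and keep no depth, so the precision that depth gives is unknown. The placode table holds the authors' own comparison (mean normalized counts, log2 fold changes with errors, statistics and P values) and was not used, and those 4 libraries were not analysed here. Every time-course column was matched to a labelled sample.

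The test used log2(TPM + 1) of the 13110 of 54332 genes whose mean reached 1 TPM. Timepoint means were fitted to all 10 libraries in limma 3.58.1 (R 4.3.3), with eBayes and a variance trend, and P values were adjusted by Benjamini-Hochberg over all genes. The study's DESeq2 test needs counts and could not be run on TPM. The step was tested on simulated data. With 2 replicates a timepoint, P values measure the spread between biological replicates as labelled, pooled over timepoints.

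Named genes were the 9 members, the 4 largest called changes at W12 in each junction list, and markers on which a result turns. The 2 genes nearest to each member by Pearson r were also named (not given for *Cldn7*). *Cldn5*, *Ildr1*, the markers set beside the W6 replicates and the values of other comparisons were chosen after their values were seen. The list of other connexins is not reported here. Members and gene lists were chosen with earlier results of these data known. Same-numbered replicates are different mice. Alternatives were a pseudocount of 0.1, other filters (all genes above 0 TPM, mean of at least 5 TPM), median-ratio and quantile scaling, eBayes without trend, only the compared libraries in the fit, a replicate block, a log2 change of at least 1, and each library left out. Leaving out both W12 libraries, crossing the replicate numbers, leaving out D0 or W12 libraries for the other junction genes and counting without genes that passed the filter only through W12 were added after seeing the data. Promoters came from RefSeq, positions from GENCODE M21 on GRCm38. Python 3.11.15 with pandas 2.3.3 and matplotlib 3.10.9 was used for sequences and figures.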

Additional observations from a re-analysis of the deposited data

How the results depend on the processing

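Of 23 called changes of the 8 genes other than *Cldn7*, 12 kept their call under every alternative tried, and none of the 23 reversed. Over all alternatives these changes gave 442 values, of which 404 kept the call and 38 lost it, and the 33 changes not called gave 630 values, of which 10 were newly called. The calls of *Gjb2* held throughout, and the 38 lost calls were 11 of *Cldn3*, 10 of *Cldn1*, 7 of *Gja1*, 6 of *Gjb6* and 4 of *Cldn4*. *Cldn7* passed the filter only through W12 and is in none of these counts. With all genes above 0 TPM, the number of members called was 2 at W1, 1 at W2 and 3 at W6. With only the compared libraries in the fit it was 2 at W1 and 3 at W6. The cause was not tested. Leaving out each library in turn gave 2 to 4 members at W1, 1 to 4 at W2, 3 to 5 at W6, 4 to 5 at W12, 1 to 3 from W2 to W6 and 2 to 3 from W6 to W12.

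Replicate numbers did not pair the libraries: the correlation of same-numbered deviations ran from -0.129 (D0 and W6) to 0.182 (W1 and W2). With the replicate block, the members called were 4, 4, 5 and 4 from W1 to W12 against D0, 0 from W1 to W2, 3 from W2 to W6, 4 from W6 to W12 and 6 over the time course, and the block added the call of *Cldn3* from W6 to W12. The genes called overall went from 15 to 6 between W1 and W2 and from 2137 to 1396 between W2 and W6. With crossed numbers for D0 and W1, D0 and W6, and W6 and W12, whose correlations were under -0.1, 4, 5 and 4 members were called.

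Over all genes the number called varied from 377 to 1773 at W1 (1296 as reported), from 652 to 2647 at W2 (2058), from 1094 to 5047 at W6 (4251), from 3156 to 6291 at W12 (5642), from 0 to 83 between W1 and W2, from 207 to 3179 between W2 and W6 and from 761 to 3223 between W6 and W12 (2642). Median-ratio scaling moved the share of higher calls from 58.6% to 44.8% at W1, from 57.7% to 45.7% at W2, from 56.5% to 45.2% at W6 and from 33.0% to 55.8% between W6 and W12, and the all-gene median of the last from -0.16 to -0.02. Under it *Cldn12* was called lower at W6 (-0.52, adjusted P = 0.0469), and under quantile scaling *Cldn1* was called lower at W12 (-0.72, adjusted P = 0.0472). TPM hold no depth, so the smallest detectable level is unknown for low genes such as *Cldn7* and *Gjb6*.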
